A study of Mus musculus with 54 samples.

Results

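MicroRNA levels were compared between small intestinal cells of APC mutant mice and of control mice through the 2 group averages that the authors deposited for each microRNA feature. The table holds 1060 features, of which 421 carry a plain microRNA name and 639 carry a further suffix that no source used here explains. Plain-named features whose larger average was at least 100 normalized reads were kept, which left 246. The feature nearest to this limit from above was let-7f-1-3p, with a larger average of 100.3, and the nearest from below was miR-98-3p, with 99.5. Of the 246, 202 reached 100 in both averages, 27 reached it in the APC mutant average only and 17 in the control average only, so the last 2 sets had to differ to be kept. The difference of a feature is log2((APC mutant average + 1)/(control average + 1)), so a positive value means a higher mutant average.

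The series covers 54 samples of mouse small intestine and is titled for miR-375, a microRNA of the crypt. Small RNA of intestinal cells was sequenced in 2 samples of genotype APC mutant and 2 of genotype control, all of strain C57BL/6J, with no further treatment named. The APC allele, the age of the mice, the cell separation and whether each library came from 1 animal are stated in no source used here. The library name of the second control sample contains MIN, a word that also stands in the names of both mutant libraries, while its title and genotype say control, and the labels were followed. Apc messenger RNA is not measured by small RNA sequencing, so the genotype was not checked in these data. Dissected crypts and villi, 4 small RNA libraries each of the same strain, served as a second readout of the same microRNAs. Levels are also given for sorted small intestinal cells of that strain. These are Sox9-EGFP Low and Sox9-EGFP Negative crypt cells of chow-fed mice, Sox9-EGFP Low cells of germ-free and of conventionalized mice (4 libraries each) and Lgr5-High cells (2 libraries). Sox9-EGFP is a fluorescent reporter of the progenitor factor Sox9, and conventionalized animals have received gut microbes after germ-free rearing.

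APC is a scaffold protein of the complex that marks beta-catenin for destruction, and cells that lose it keep Wnt signalling on and form intestinal adenomas. Wnt signalling is also what maintains the stem and progenitor cells of the normal crypt, whose daughters differentiate as they move onto the villus. A microRNA is cut from a hairpin that yields a 5p and a 3p strand, and the loaded strand finds messenger RNAs mainly through its seed, bases 2 to 8 from the 5′ end. In the intestinal epithelium miR-192 and miR-194, which are transcribed together, and the miR-200 family, which represses the ZEB factors, are known as abundant products. miR-375 and miR-7 are known from hormone-producing cells, miR-146a from responses to NF-kappaB, and miR-21, miR-31 and the miR-17-92 cluster from tumours.

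Mature sequences were taken from RefSeq on build GRCm38.p6 by gene symbol and arm, and 212 of the 246 features matched one. The sequences below belong to the features with large differences and to relatives that share their seed. Capitals mark the seed, and the position of the mature strand follows on GRCm38.
miR-192-5p: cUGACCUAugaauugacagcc
miR-194-5p: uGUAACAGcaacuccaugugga
miR-218-5p: uUGUGCUUgaucuaaccaugu
miR-7b-5p: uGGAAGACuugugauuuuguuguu
miR-7a-5p: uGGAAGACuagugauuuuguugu
miR-146a-5p: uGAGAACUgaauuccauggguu
miR-146b-5p: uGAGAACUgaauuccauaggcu
miR-10a-5p: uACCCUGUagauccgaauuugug
miR-10b-5p: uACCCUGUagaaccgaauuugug
miR-99a-5p: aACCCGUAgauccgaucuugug
miR-99b-5p: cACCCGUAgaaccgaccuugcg
miR-708-5p: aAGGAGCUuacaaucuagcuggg
miR-28-5p: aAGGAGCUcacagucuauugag
miR-149-5p: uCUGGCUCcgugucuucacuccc
miR-192-5p lies at chr19:6264857-6264877 on the plus strand and miR-194-2-5p at chr19:6264658-6264679, with no annotated gene over them on that strand. The second copy, miR-194-1-5p, lies at chr1:185313325-185313346. miR-218-1-5p (chr5:48223966-48223986) lies in Slit2 and miR-218-2-5p (chr11:35616840-35616860) in Slit3. miR-146a-5p lies at chr11:43374435-43374456 on the minus strand, with no annotated gene over it on that strand. miR-708-5p (chr7:96249450-96249472) lies in Tenm4 and miR-149-5p (chr1:92850381-92850403) in Gpc1.

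The mutant average was at least 2-fold higher for 48 of the 246 microRNAs and at least 2-fold lower for 47, while 151 differed by less. Among all 464 features with a larger average of at least 100, suffixed ones included, 24.8% were at least 2-fold higher and 18.1% at least 2-fold lower. The median difference was 0.003 on the log2 scale, with quartiles of -0.65 and 0.74, and the differences ran from -6.71 for miR-137-3p to 7.61 for miR-149-5p. Both ends are against a group listed at 0, so their size is set by the 1 added to each average, and they became -4.22 and 5.69 after the rescaling below. Differences of at least 4-fold were found for 25 microRNAs in the higher direction and 16 in the lower. The scale matters to this balance, because the averages of the whole table sum to 3828106 in the mutant and 5862533 in the control. Rescaling both to a total of 1000000 moved the median difference of the 246 to 0.62, with 81 at least 2-fold higher and 22 at least 2-fold lower. All differences below are on the authors' scale. Rescaling raised most by close to 0.61, while features with low or 0 averages, on which the added 1 weighs most, shifted by -1.92 to 2.49.

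**Figure D1:**
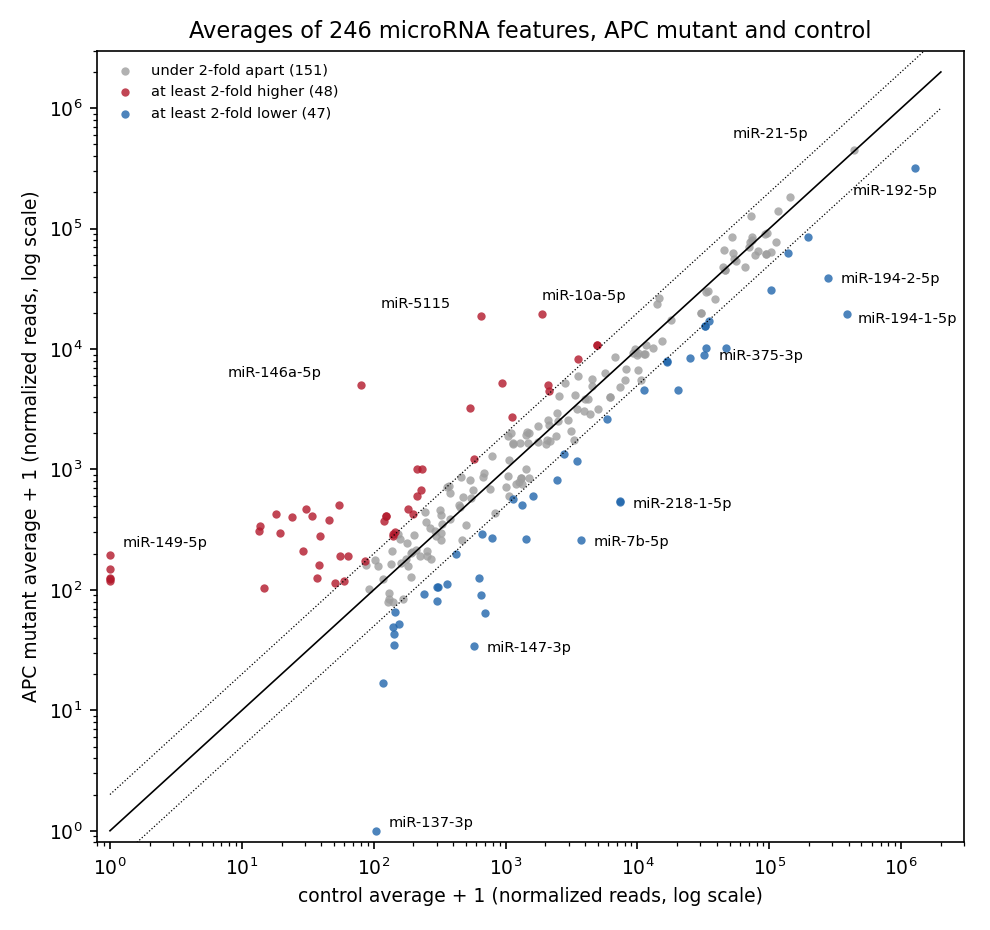
Control average (x axis) against APC mutant average (y axis) of the 246 microRNAs, both in normalized reads plus 1 on log scales, where each point is 1 microRNA. The solid line marks equal averages and the dotted lines 2-fold differences, and miR-192-5p and both miR-194 copies lie far below the lines at the abundant end.

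The averages carry no error, but each proved to be a sum of whole reads of 2 libraries, so the library values behind most of them could be worked out. In the mutant 1 read is worth 1.58 normalized units in one library, called A, and 2.11 in the other, called B. In the controls 1 read is worth 1.82 units in library A and 2.29 in library B. Which labelled sample is A or B is not known. The smallest number of reads above 0 in any library was 10, so a value of 0 means fewer than 10 reads. Values of all 4 libraries were found for 208 of the 246 microRNAs, and those missing are among the most abundant. Libraries of a group lay close together, with a median log2 range of 0.32 between the mutant libraries and 0.23 between the controls.

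Of these 208, 78 had both mutant libraries above both controls, 79 had both below and 51 overlapped. Over all 425 features with a larger average of at least 100 and library values, 41.9% lay above and 34.6% below, so separation of 2 from 2 libraries is common in this table. limma with Benjamini-Hochberg adjustment over 509 features called 35 of the 208 higher and 31 lower in the mutant at an adjusted p under 0.05, and 105 had an unadjusted p under 0.05. Over all 509 features it called 17.1% higher and 12.4% lower. This test was run on the authors' scale only and was added after the data were seen. Its p-values measure only the spread between these libraries, since nothing in the labels says that they came from separate animals. It depends on all 4 libraries: leaving out mutant library B left 2 higher and 5 lower calls, mutant A 11 and 9, control A 10 and 5, and control B 15 and 7. Of the 48 microRNAs at least 2-fold higher, 42 had libraries that did not overlap and 29 were called. Of the 37 at least 2-fold lower with library values, 36 did not overlap and 28 were called. Both sets were chosen by averages of these same libraries, so the counts describe them and lend no support. Calls and p-values of microRNAs kept through 1 average alone, which had to differ, are a description too. Since 1 control library carries the word MIN, the counts were also taken with each control library left out. Among the 208, 43 were at least 2-fold higher and 30 lower without control A, and 49 and 41 without control B.

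Several of the most abundant microRNAs of the control were those of the epithelium, and the miR-192 and miR-194 averages were far lower in the mutant. miR-192-5p was the most abundant feature of the control, with an average of 1279585 and 21.8% of all normalized reads, against 318847 and 8.33% in the mutant, which is 4.01-fold lower. miR-194-1-5p had an average of 387274 in the control and 19477 in the mutant, a difference of -4.31. For its second copy miR-194-2-5p the averages were 280230 and 38628, a difference of -2.86. The 2 copies have the same mature sequence, printed above, so reads cannot be assigned to one of them by sequence, and their sums of 667504 and 58105 differ by -3.52. By average, miR-194-1-5p ranked 3 of the 246 in the control and 38 in the mutant. The strand opposite miR-192-5p gave library values. miR-192-3p stood at 269 and 253 in the mutant libraries and at 1411 and 1445 in the controls, a log2 difference of -2.45 ± 0.15 (SE, limma, adjusted p = 0.00151). No mutant library came near a control library.

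Of the 16 microRNAs of the epithelial list, which joins miR-192, miR-194, miR-203 and the miR-200 family, 10 were at least 2-fold lower and none higher, with a median of -1.38. All 9 with library values had both mutant libraries below both controls, and limma called 5 of them lower. Over all features, 34.6% lay below and 12.4% were called lower. The 9 include miR-429-5p and miR-203-5p, kept through the control average alone, which had to be lower, so these counts are a description. The 16 hold both miR-194-5p copies, which share a sequence and are not separate observations. The members without library values ran from miR-194-1-5p at -4.31 to miR-429-3p at 0.04. Rescaled to equal totals, 7 of the 16 were still at least 2-fold lower and the median was -0.77. Fewer cells of a type and less RNA per cell cannot be told apart in such averages. miR-203-3p, a microRNA of differentiating epithelium, stood at 9832 and 7083 in the mutant libraries and at 27249 and 22669 in the controls (-1.57 ± 0.24, SE, limma, adjusted p = 0.0164). Its 5p strand had a difference of averages of -1.90, but it was kept through its control average alone and had to be lower.

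The 9 miR-200 family strands were less uniform: 3 were at least 2-fold lower, 6 were not, and the median of -0.50 turned to 0.12 after rescaling to equal totals. miR-141-3p fell from 36182 and 27292 in the control libraries to 6958 and 10979 in the mutants (-1.85 ± 0.31, SE, limma, adjusted p = 0.0197). miR-200a-3p, which has the same seed as miR-141-3p, had averages of 196052 in the control and 85023 in the mutant, a difference of -1.21. The other seed of the family showed smaller differences. Averages of miR-200c-3p were 103176 in the control and 63886 in the mutant (-0.69), those of miR-200b-3p differed by -0.43, and those of miR-429-3p were 54338 and 55690 (0.04). The minor strand miR-429-5p had 962 and 424 in the control libraries and 31.7 and 95.0 in the mutants, which limma called lower (-3.51 ± 0.71, SE, adjusted p = 0.0314). It was kept through its control average alone and had to be lower. The same holds for miR-203-5p above and for miR-147-3p, miR-3105-3p, miR-137-3p, miR-449a-5p, miR-7a-2-3p and miR-139-5p below. Their calls, p-values and places in the list counts are a description.

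Both miR-7b-5p and miR-375-3p, known from endocrine cells, were lower in the mutant. miR-7b-5p stood at 3810 and 3696 in the control libraries and at 288 and 228 in the mutants, a difference of -3.87 ± 0.18 (SE, limma, adjusted p = 0.00103). Its relative miR-7a-5p, which shares the seed, did not follow: the copy miR-7a-1-5p stood at 36593 and 32328 in the controls and at 33900 and 27089 in the mutants, where the groups overlap. Counted from 1 at the 5′ end, miR-7b differs from miR-7a within their common length by A10U alone. miR-375-3p, the subject of the series, stood at 31909 and 34281 in the controls and at 11725 and 8858 in the mutants (-1.70 ± 0.22, SE, limma, adjusted p = 0.00991). Of the 6 enteroendocrine list members 3 were at least 2-fold lower and none higher, with a median of -0.93, or -0.32 after rescaling. Of the 3, miR-7a-2-3p was kept through its control average alone and had to be lower.

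miR-137-3p, best known from neurons, stood at 74.5 and 132.8 in the control libraries and at 0 in both mutants, so its control average was at least 6.23-fold higher. This bound takes 9 reads as the most that a library listed at 0 can hold. miR-218-5p, carried within Slit genes, was counted nearly the same for its 2 copies. miR-218-1-5p stood at 7422 in both control libraries and at 551 and 532 in the mutants (-3.77 ± 0.14, SE, limma, adjusted p = 0.000899). Because both copies have 1 sequence, miR-218-2-5p is not a second observation. miR-147-3p, known from activated macrophages, stood at 778 and 380 in the controls and at 39.6 and 27.4 in the mutants , a difference of averages of -4.07 (limma adjusted p = 0.00722). miR-449a-5p, which lies in Cdc20b and is known from multiciliated cells, stood at 760 and 545 against 111 and 69.7. Its seed relative miR-34a-5p, a target of p53, overlapped between the groups, at 11336 and 8981 in the controls and 8085 and 10635 in the mutants.

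The remaining microRNAs of the 15 furthest below were miR-22-3p, miR-802-5p, miR-362-3p, miR-3105-3p and miR-7a-2-3p. miR-802-5p stood at 21740 and 18957 in the control libraries and at 4542 and 4608 in the mutants (-2.15 ± 0.16, SE, limma, adjusted p = 0.00198). The averages of miR-22-3p were 47175 in the control and 10199 in the mutant, a difference of -2.21. miR-362-3p, which lies within Clcn5, stood at 702 and 559 against 130 and 120 in the mutants. limma called miR-362-3p and miR-3105-3p lower (adjusted p = 0.00375 and 0.0227). miR-7a-2-3p did not pass (adjusted p = 0.142), with 1 mutant library at 0 and the other at 31.7 against 111 and 121 in the controls.

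**Figure D2:**
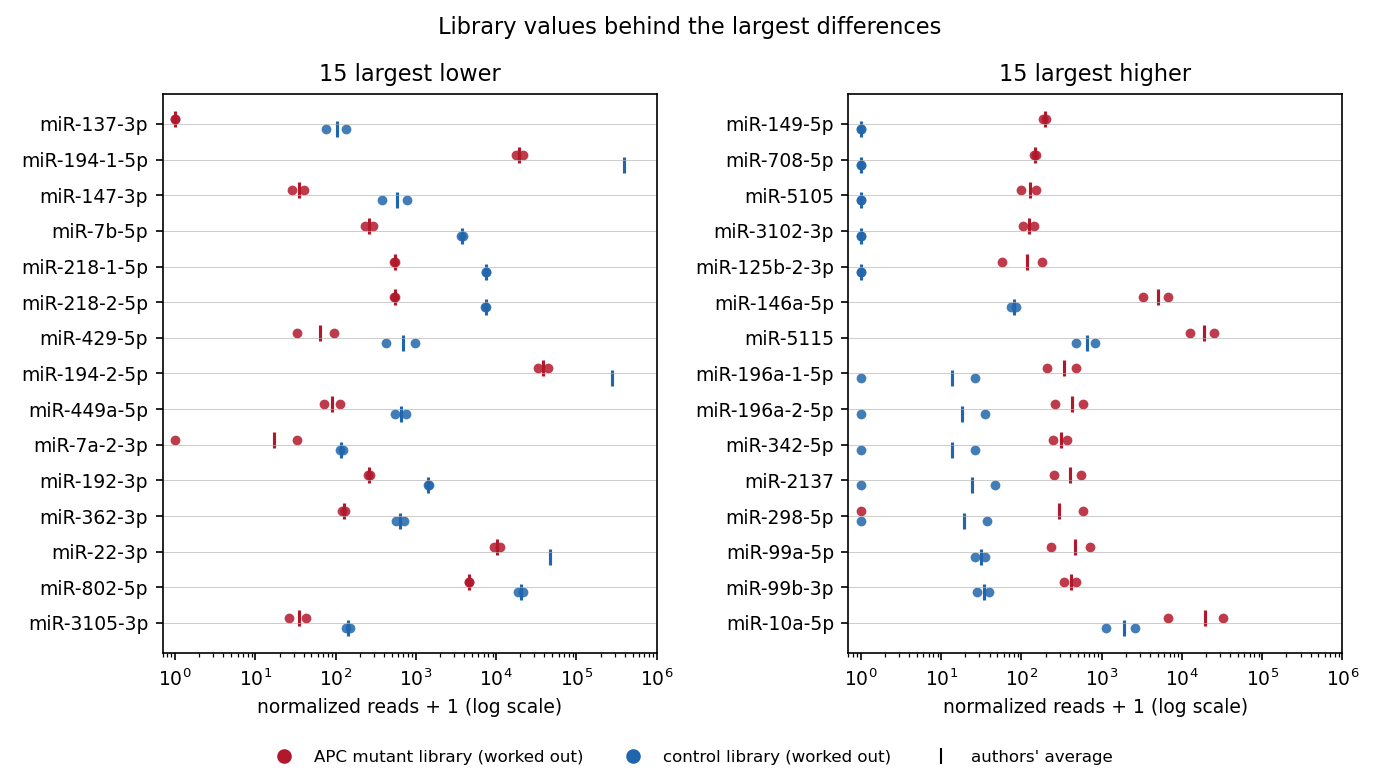
Normalized reads plus 1 on a log scale (x axis) for the 15 microRNAs with the largest lower and the 15 with the largest higher differences, where points are libraries worked out from the averages and vertical ticks are the authors' averages. Points at 1 stand for libraries listed at 0, and of the microRNAs with all 4 libraries shown only miR-298-5p has overlapping groups.

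Among the microRNAs with higher mutant averages, miR-146a-5p had the largest difference of those detected in all 4 libraries. It stood at 3264 and 6749 in the mutant libraries and at 72.7 and 84.7 in the controls, a difference of 5.88 ± 0.40 (SE, limma, adjusted p = 0.00158). miR-146b-5p, with the same seed and 2 differences further on (A18G and C21U from miR-146b to miR-146a), stood at 628 and 806 in the mutants, below the 1045 and 955 of the controls, and was not called (adjusted p = 0.133). miR-342, which lies within Evl, was higher on both strands. miR-342-3p stood at 273 and 289 in the mutants and at 30.9 and 45.8 in the controls (2.87 ± 0.31, SE, limma, adjusted p = 0.00575). miR-342-5p stood at 247 and 369.4 against 0 and 25.2 and did not pass (adjusted p = 0.0675). miR-155-5p, a microRNA of activated leukocytes, overlapped, at 1268 and 2022 in the mutants and 1267 and 1287 in the controls. So 3 of the 5 members of the leukocyte list were at least 2-fold higher and none at least 2-fold lower, with a median of 2.84. The 3 are miR-146a-5p and both strands of miR-342. All 3 were kept through the mutant average alone and had to be higher, so this count and median are a description. miR-155-5p and miR-146b-5p, which reached the limit in both averages, were not at least 2-fold higher. Of the defining leukocyte markers, miR-142 and miR-223 are not analysed here. miR-150-5p had an average of 11.6 in the mutant and 0 in the control, and together with miR-155-5p it summed to 0.0433% and 0.0218% of all normalized reads.

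In all, 5 microRNAs were listed at 0 in both control libraries and found in both mutants.
miR-149-5p, within Gpc1, stood at 187 and 201 in the mutant libraries, so its mutant average was at least 10.5-fold higher. miR-708-5p, within Tenm4, stood at 142.6 and 151.99, which is at least 7.97-fold higher. The bounds were lower for miR-5105, miR-3102-3p and miR-125b-2-3p, at 6.77-fold, 6.66-fold and 6.34-fold. These 5 were kept through the mutant average alone and had to differ, so no p-value is given for them. The limma calls counted above include them. The p-values of miR-146a-5p, miR-342-3p, miR-99a-5p, miR-99b-3p and miR-27a-5p, kept in the same way, are likewise a description. For miR-5105 the plain feature is a small share of the reads under that name: with its 16 suffixed features the sums were 11547 in the mutant and 72.7 in the control. miR-28-5p, the seed relative of miR-708-5p, did not share the difference, at 2494 and 2616 in the mutants and 2903 and 3078 in the controls.

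The miR-99 and miR-125 strands, which are transcribed together from related loci, were higher from 2 loci. On chromosome 17, within Spaca6, miR-99b-5p stood at 2962 and 3517 in the mutant libraries and at 416 and 653 in the controls (2.63 ± 0.28, SE, limma, adjusted p = 0.00571). miR-99b-3p stood at 339 and 481 against 27.3 and 38.9, and miR-125a-5p at 984 and 1034 against 156 and 270. Both passed (adjusted p = 0.00384 and 0.0127), while miR-125a-3p, with 82.4 and 125 against 0 and 27.5, did not (adjusted p = 0.14). On chromosome 16, within Mir99ahg, miR-99a-5p stood at 233 and 707 in the mutants and at 25.4 and 34.3 in the controls (3.73 ± 0.62, SE, limma, adjusted p = 0.0194). let-7c-1-5p, from the same locus, differed by 0.12, but its sequence is also that of the copy let-7c-2.

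The averages of the microRNAs from Hox clusters differed in direction, and none of those named here was called. miR-10a-5p, from the Hoxb cluster on chromosome 11, had averages of 1877 in the control and 19435 in the mutant. Its mutant libraries stood far apart, at 6748 and 32122, against 2616 and 1138 in the controls, and limma did not call it (3.09 ± 0.90, SE, adjusted p = 0.0694). miR-10b-5p, from the Hoxd cluster on chromosome 2, stood lower, at 171 and 363.1 in the mutants and 891 and 680 in the controls, and was not called either (adjusted p = 0.0576). The 2 sequences differ by A12U from miR-10b to miR-10a, outside the seed. miR-196a-1-5p, from the Hoxb cluster, stood at 209 and 473 in the mutants and at 25.4 and 0 in the controls, and was not called (adjusted p = 0.0694). Its Hoxc copy miR-196a-2-5p has the same sequence and close values. In miR-10a, miR-196a and miR-99a alike, the mutant libraries were more than 2-fold apart with library B the higher, as in 22 of the 208 microRNAs with library values, while 8 had library A at least 2-fold higher. The same counts in the controls were 5 and 11.

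Some of the largest higher values rest on many suffixed features or on few libraries. miR-5115 stood at 24856 and 12660 in the mutant libraries and at 476 and 820 in the controls (4.82 ± 0.46, SE, limma, adjusted p = 0.00397). Its 14 suffixed features held 75.5% of the reads under this name in the mutant and 86.1% in the control. miR-2137 stood at 553 and 251 against 0 and 45.8 and was not called (adjusted p = 0.1). miR-298-5p rested on a single library, at 591 and 0 in the mutants and 0 and 36.6 in the controls, and the groups overlap. miR-676-3p, next after the 15 furthest above and named because the groups were tight, stood at 547 and 471 against 52.7 and 54.96.

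The microRNAs known from colorectal tumours differed little between these averages. Of 20 strands on the list of those reported higher in colorectal tumours, 1 was at least 2-fold higher and none lower, with a median of 0.20. Of all 246, 19.5% were at least 2-fold higher and 19.1% lower. Rescaled to equal totals, 7 of the 20 were higher and the median was 0.81, where 32.9% of all 246 were higher with a median of 0.62. miR-21-5p, often raised in tumours, had averages of 448311 in the mutant and 438034 in the control, a difference of 0.03, and was the most abundant feature of the mutant. miR-31-5p differed by 0.20 and miR-92a-1-3p, from the miR-17-92 cluster, by 0.36, with 183201 in the mutant and 142745 in the control. The single strand past 2-fold was miR-182-3p (1.58), which was kept through its mutant average alone and had to be higher. Of the 5 strands reported lower in colorectal tumours, 2 were at least 2-fold lower, miR-375-3p and miR-139-5p. miR-139-5p was not called by limma, with 36.4 and 65.4 in the mutants and 127 and 183.2 in the controls (adjusted p = 0.0565). It was kept through its control average alone and had to be lower. miR-145, another microRNA of that list, is not analysed here, and miR-143-3p had averages of 51.7 and 13.7, under the limit.

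Within the miR-17-92 cluster and its paralogues the loci differed. The 6 strands of the miR-106b, miR-93 and miR-25 locus, which lies within Mcm7, all had higher mutant averages, with a median of 0.67 and 2 of them at least 2-fold higher. miR-106b-3p stood at 8640 and 7760 in the mutant libraries and at 3387 and 3746 in the controls (1.20 ± 0.16, SE, limma, adjusted p = 0.0109), and miR-25-5p at 447 and 372 against 102 and 141.98 (1.75 ± 0.27, SE, adjusted p = 0.0161). The 10 strands of the miR-17-92 locus itself had a median of -0.14 and none was at least 2-fold higher, which rescaling turned to 0.47. miR-19b-1-3p from it fell from 17949 and 15455 in the control libraries to 7611 and 8077 in the mutants (-1.09 ± 0.17, SE, limma, adjusted p = 0.0168). After rescaling, the difference of its averages was -0.48. The list of 18 as a whole had 2 higher and 3 lower, with a median of 0.18.

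Most strands of the miR-23, miR-27 and miR-24 clusters had higher mutant averages. All 8 strands with library values had both mutant libraries above both controls, against 41.9% of all features. limma called 7 of the 8 higher, against 17.1% of all features. The 8 include both copies of miR-24-3p, which have 1 sequence and are not separate observations. They also include miR-27a-5p, which was kept through its mutant average alone and had to be higher, so these counts are a description. Of the 9 strands, 4 were at least 2-fold higher, with a median of 0.91. miR-24-3p, counted alike for both copies, stood at 10060 and 11435 in the mutants and at 5272 and 4646 in the controls (1.12 ± 0.17, SE, limma, adjusted p = 0.016). miR-27a-5p stood at 250 and 171 against 29.1 and 27.5 (2.83 ± 0.32, SE, adjusted p = 0.00703). The most abundant strand of the group, miR-27b-3p, did not share the difference, with averages of 53602 and 55772. The 4 strands of the miR-183, miR-96 and miR-182 cluster, known from sensory cells and tumours, all had higher averages, with a median of 0.86. Among them miR-182-3p was kept through its mutant average alone and had to be higher. miR-182-5p, the most abundant of them, had averages of 127018 and 72843, a difference of 0.80.

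The other families had smaller differences or few members past 2-fold. Averages of the abundant let-7i-5p were 139847 in the mutant and 116031 in the control, a difference of 0.27. The 12 miR-30 strands had a median of -0.03, and the 5 miR-181 strands one of -0.12. The medians of both families turned positive after rescaling to equal totals. The 8 strands of the miR-15 and miR-16 list had a median of -0.46, or 0.15 after rescaling, and limma called miR-15a-5p lower, at 1105 and 1258 in the mutants and 3876 and 3087 in the controls (-1.55 ± 0.19, SE, adjusted p = 0.00843). Of the 5 strands of the miR-148 and miR-152 list 2 were at least 2-fold lower, with a median of -0.84. miR-148a-3p, the most abundant of these, had averages of 139593 in the control and 63175 in the mutant, a difference of -1.14.

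**Figure D3:**
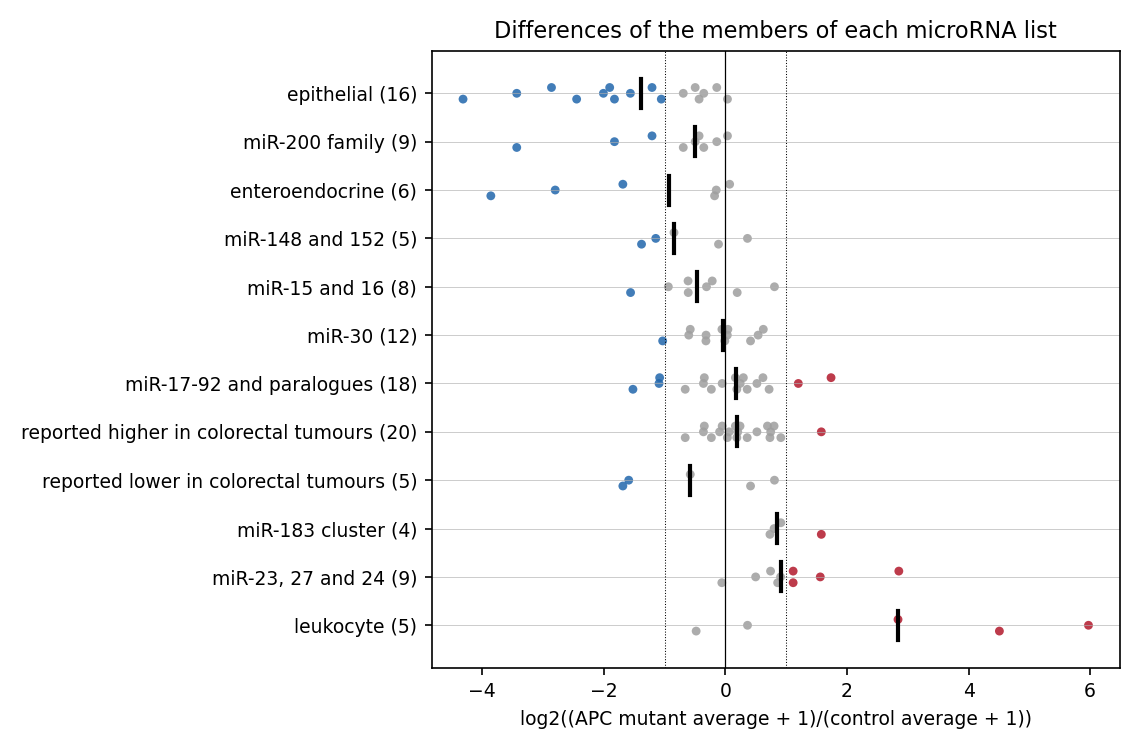
Log2 differences between the APC mutant and control averages (x axis) for the members of 12 microRNA lists, with the number of members in brackets, where each point is 1 microRNA, the black bar is the list's median and the dotted lines mark 2-fold. Points are blue where at least 2-fold lower, red where at least 2-fold higher and grey otherwise, a microRNA can stand in more than 1 list, and the medians of the miR-200, miR-15 and 16, miR-30 and lower-in-tumour lists turn positive after rescaling to equal totals.

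Sequence relatives were compared because the seed largely sets which target sites a microRNA binds. Of the 28 seeds shared by at least 2 different mature sequences, 15 had all their members within 2-fold of each other in difference, and the median range of the difference within a seed was 0.84. For 8 seeds the range was at least 2 on the log2 scale. Among them were AGGAGCU (miR-708-5p, at least 7.97-fold higher, and miR-28-5p at -0.23), GAGAACU (miR-146a-5p at 5.97 and miR-146b-5p at -0.48), ACCCUGU (miR-10a-5p at 3.37 and miR-10b-5p at -1.55) and GGAAGAC (miR-7b-5p at -3.86 and the miR-7a-5p copies at -0.18 and -0.15). These 4 were picked by their range, which is a description. In each of them except ACCCUGU, the relative with the smaller difference was the more abundant in the controls. The seed GGCAGUG joined miR-449a-5p at -2.84, which was kept through its control average alone and had to be lower, with miR-34a-5p at -0.12. Both members of ACCCGUA, miR-99a-5p and miR-99b-5p, were higher, though miR-99a-5p was kept through its mutant average alone and had to be. Their 4 differences from miR-99b to miR-99a are C1A, A11U, C16U and C21U.

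Some features share 1 mature sequence between gene copies. Of 18 such pairs, 16 had differences within 0.25 of each other. The exceptions were miR-194 (-4.31 and -2.86) and miR-92a, where miR-92a-1-3p differed by 0.36 and the far rarer miR-92a-2-3p by -0.35.

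Both strands of a hairpin were among the 246 for 67 hairpins, and the strands come from 1 precursor. No hairpin had one strand at least 2-fold higher and the other at least 2-fold lower. For 5 hairpins both strands were at least 2-fold higher (miR-10a, miR-125a, miR-24-2, miR-342 and miR-99b), and for 7 both were at least 2-fold lower (miR-192, miR-194-2, miR-19b-1, miR-203, miR-22, miR-378 and miR-802). In miR-10a, miR-125a, miR-342 and miR-99b at least 1 strand was kept through the mutant average alone and had to be higher. miR-203-5p, and miR-429-5p and miR-7a-2-3p below, were kept through the control average alone and had to be lower. Across the 67 hairpins the differences of the 2 strands had a Pearson r of 0.69 and a Spearman rho of 0.57, a description over strands measured in the same 4 libraries. In 16 hairpins the strands were at least 2-fold apart. The widest gap was in miR-429, with -3.43 for its rare 5p strand and 0.04 for its abundant 3p strand, then in miR-7a-2, with -0.15 for its 5p and -2.80 for its 3p strand. For miR-141 the abundant 3p strand (-1.82) was further down than the 5p strand (-0.50).

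**Figure D4:**
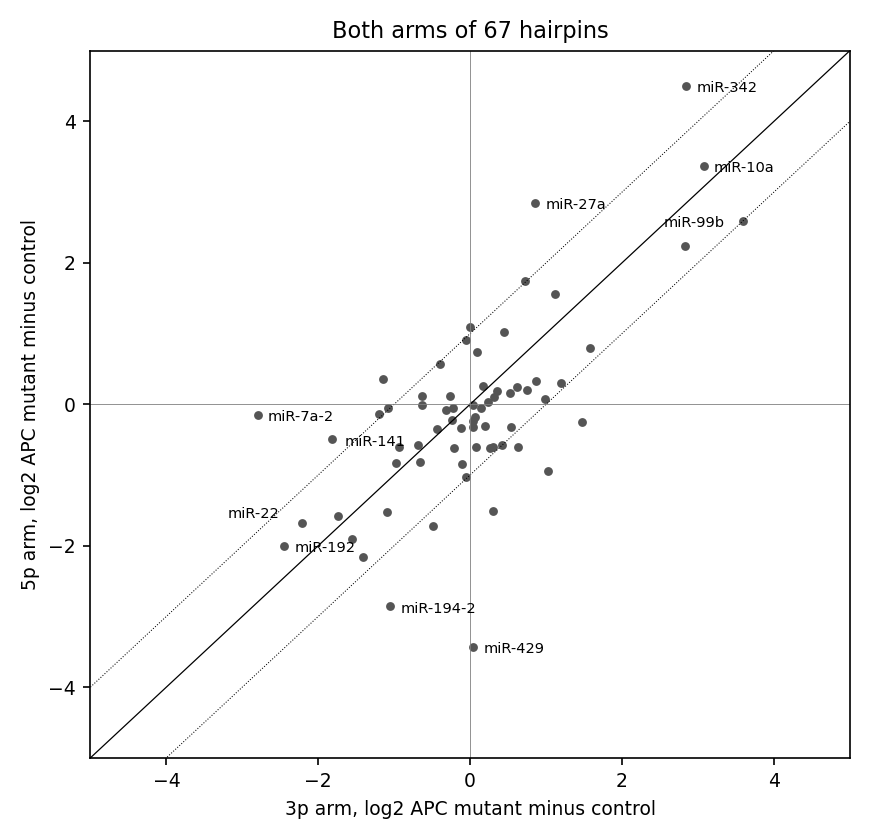
Log2 difference between APC mutant and control averages of the 3p strand (x axis) and the 5p strand (y axis) of 67 hairpins, where each point is 1 hairpin, the solid line marks equal differences and the dotted lines a gap of 1. Most hairpins lie near the solid line, with miR-429 and miR-7a-2 furthest from it.

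Higher and lower averages were spread unevenly over abundance. Of 107 microRNAs with a larger average from 100 to 1000, 34 were at least 2-fold higher and 19 lower. Of 76 from 1000 to 10000, 10 were higher and 11 lower. Of 63 at 10000 or more, 4 were higher and 17 lower. The medians of these classes were 0.33, -0.13 and -0.32, and after rescaling 0.94, 0.49 and 0.30, so their order was the same on both scales. Members kept through 1 average had to differ and lie mostly in the lowest class. Among those with both averages at 100 or more, 10 of 64 were at least 2-fold higher and 7 lower in the lowest class, 9 and 11 of 75 in the middle class and 4 and 17 of 63 in the highest. The 10 most abundant features of the control made up 54.5% of all its normalized reads and 37.6% of those of the mutant.

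The marker microRNAs of other cells that could be matched had low sums in both groups. The sums cover part of each list, since miR-215 of the epithelium, miR-145, miR-214, miR-144, miR-216a, miR-217 and miR-124, among others, are not analysed here. The 15 epithelial marker strands summed to 16.9% of the mutant reads and 41.1% of the control reads, a gap that lay in miR-192 and miR-194. The 4 strands of the miR-192 and miR-194-2 locus summed to 359070 in the mutant and 1564010 in the control. The 9 miR-200 family strands summed to 268751 of 3828106 normalized reads in the mutant and 459302 of 5862533 in the control, which are similar shares. Those of smooth muscle and fibroblasts summed to 74.96 normalized reads in the mutant and 13.7 in the control, those of endothelium to 502 and 284, those of red cells to 96.9 and 72.1 and those of striated muscle to 66.0 and 65.7. The neuronal marker miR-9-5p was listed at 23.2 for each of its 3 copies in the mutant and at 0 in the control. miR-122-5p, a liver microRNA, stood at 58.6 and 322.99 in the mutants and at 45.5 and 64.1 in the controls, where the groups overlap. miR-126-5p, of endothelium, was called higher, at 458 and 424 against 223.6 and 263 (0.86 ± 0.19, SE, limma, adjusted p = 0.0391). The part of such cells in the differences above was not tested.

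Crypts and villi of normal intestine, in other libraries, give a second measurement of the same microRNAs. Values are in reads per 1000000 assigned to microRNAs (RPMMM in the authors' naming). limma with Benjamini-Hochberg adjustment over 239 features tested those of the 246 with a mean of at least 50 RPMMM and called 46 higher and 9 lower in crypts, where 36.4% and 10.5% of all features tested were called. This split depends on the scaling: with median-of-ratios scaling 22 were called higher and 37 lower, as the median difference of all features tested moved from 0.39 to -0.07. Among the microRNAs at least 2-fold lower in the APC mutant, 23 were tested, of which 6 were called lower and 4 higher in crypts, with a median of -0.17. Among those at least 2-fold higher in the mutant, 20 were tested, of which 11 were called higher and 1 lower in crypts, with a median of 0.94. The 90 with smaller differences had 31 higher and 2 lower calls and a median of 0.31. After median-of-ratios scaling the calls were 3 higher and 14 lower in the class lower in the mutant, 6 and 2 in the class higher in the mutant and 13 and 21 in the class between. The 3 medians were then -0.63, 0.48 and -0.15, so their order was kept.

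The 6 microRNAs lower in both comparisons were miR-194-1-5p, miR-194-2-5p, miR-192-5p, miR-22-3p, miR-802-5p and miR-203-3p. miR-194-1-5p stood at 17923, 12912, 24121 and 16262 RPMMM in the 4 crypt libraries and at 59382, 66870, 49847 and 67819 in the 4 villus libraries (-1.80 ± 0.21, SE, limma, adjusted p = 0.000434). miR-192-5p stood at 20053, 28963, 26352 and 35406 in crypts and at 47700, 52356, 68718 and 60444 in villi (-1.06 ± 0.20, SE, adjusted p = 0.00277). No crypt library reached a villus library for either. miR-802-5p, less abundant, had 25.3 to 40.1 RPMMM in crypts and 58.2 to 105 in villi (-1.27 ± 0.26, SE, adjusted p = 0.00371).

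miR-375-3p went in opposite directions in the 2 comparisons. It stood at 16350, 21282, 11339 and 16566 RPMMM in crypts and at 7531, 4746, 5814 and 6188 in villi (1.42 higher on the log2 scale, limma, adjusted p = 0.000954), while its APC mutant libraries lay below the controls. Of the microRNAs higher in the mutant, miR-342-5p stood at 214.7, 160, 160 and 190 in crypts and at 33.95, 26.4, 29.1 and 29.4 in villi (2.57 ± 0.21, SE, adjusted p = 7.89e-05). miR-146a-5p stood at 2993, 1957, 1281 and 3196 in crypts and at 975, 1265, 1254 and 849 in villi (1.05 ± 0.30, SE, adjusted p = 0.0164), a call that was lost with median-of-ratios scaling. Both miR-342 and miR-146a are on the leukocyte list. The leukocyte markers miR-155-5p and miR-150-5p were also called higher in crypts by limma (2.27 and 2.85), while miR-146b-5p was not called (-0.04). The part of leukocytes in these differences was not tested. miR-5115 was the exception among the higher microRNAs, at 2.94 to 15.6 in crypts and 185 to 559 in villi (-5.77 ± 0.51, SE, adjusted p = 9.92e-05). Over the microRNAs tested (20, 90 and 23 in the 3 classes above) the 2 differences had a Pearson r of 0.20 and a Spearman rho of 0.35, a description over features that share libraries within each comparison.

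**Figure D5:**
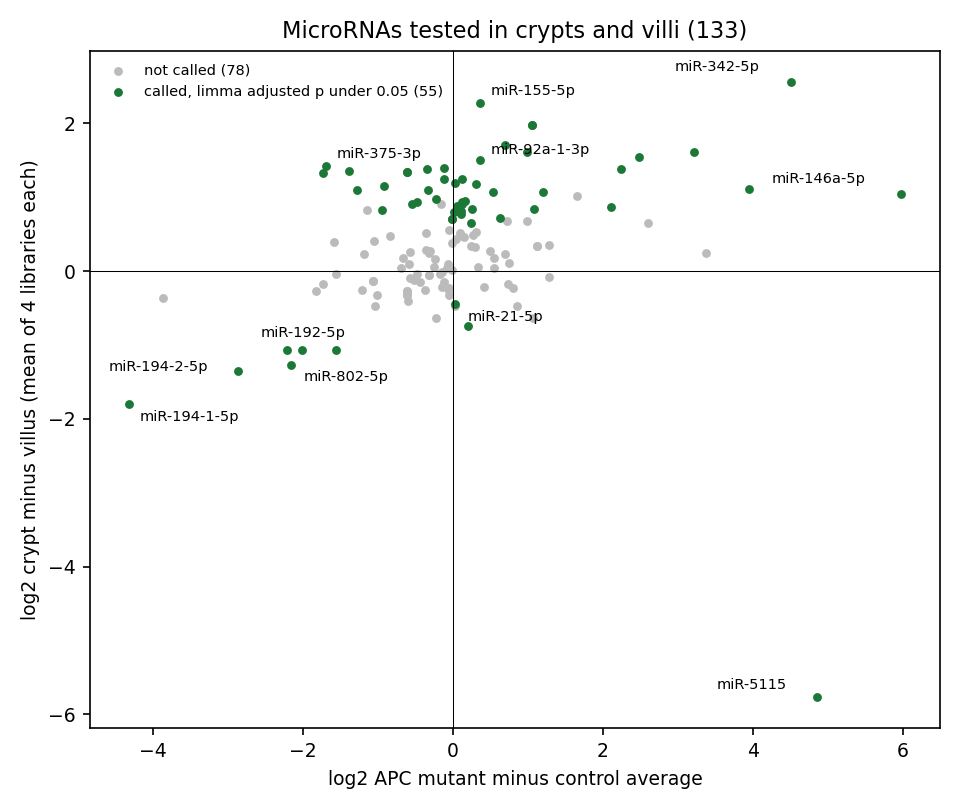
Log2 difference between APC mutant and control averages (x axis) against the log2 difference between crypts and villi (y axis, mean of 4 libraries each) for the microRNAs tested in crypts and villi, where each point is 1 microRNA and green marks a limma adjusted p under 0.05 for crypts against villi. miR-192-5p and both miR-194-5p copies lie at the lower left, miR-342-5p and miR-146a-5p at the upper right and miR-5115 at the lower right.

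The sorted populations of the series show where the same microRNAs are found in normal intestine, and these levels were not tested between groups. miR-7b-5p ranged from 19.9 to 41.9 RPMMM in the 4 Sox9-EGFP Negative libraries and from 6632 to 14251 in the 4 Sox9-EGFP Low libraries of chow-fed mice, 2 ranges that do not overlap. In Sox9-EGFP Low cells of germ-free mice it ranged from 12893 to 14193, and in those of conventionalized mice from 4111 to 9158. The column names of the third Sox9-EGFP Low and the third Negative sample have HFD in them, and their labels have chow. miR-375-3p had the same pattern, with 413 to 631 in Sox9-EGFP Negative and 35358 to 144628 in Sox9-EGFP Low libraries.

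miR-194-1-5p had the opposite pattern, with 79851 to 136429 RPMMM in Sox9-EGFP Negative libraries, 5206 to 7226 in Sox9-EGFP Low libraries and 3720 to 4122 in the 2 Lgr5-High libraries, whose source label says Lgr4. miR-192-5p was highest in the Lgr5-High libraries, at 298490 to 308211, against 98528 to 117386 in Sox9-EGFP Negative libraries, unlike miR-194-1-5p. miR-146a-5p was lower in Sox9-EGFP Negative libraries, at 48.5 to 197, than in Sox9-EGFP Low libraries, at 409.5 to 1948. miR-10a-5p ranged from 28.7 to 74.9 in Sox9-EGFP Negative libraries and from 561 to 973 in Lgr5-High libraries. miR-137-3p was at 0 in all crypt, villus, Lgr5-High and Sox9-EGFP Negative libraries, and reached 27.4 in conventionalized and 18.9 in Sox9-EGFP Low libraries. miR-149-5p and miR-708-5p, listed at 0 in the controls of the APC comparison, were near the floor elsewhere too, with highest values of 16.3 and 14.3 in crypts. miR-218-1-5p did not pass 95 RPMMM in any of the 30 libraries.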

How the data were processed

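Small RNA libraries followed the TriLink CleanTag protocol, per the labels' protocols. For APC mutant and control cells (2 samples each) the authors deposited group averages of normalized reads, a signal on a scale common to both groups. The submitters' processing notes name mm10, STAR, Salmon, Cell Ranger and DESeq2 without a role, and the small RNA aligner and counter are stated in no source used here. The authors' deposited fold changes and p-values were not used. The second table holds RPMMM values, an RPM unit per the file name, deposited per library. Its 4 columns that match no sample were not used.

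The difference of 2 averages has no error and no test of its own. Each average was solved as a sum of whole reads of 2 libraries with a search over step sizes. All 765 mutant and 668 control averages above 0 and below 10000 had exactly 1 solution, and above it 40 of 56 and 22 of 60 did. The search and limma, for both 4 against 4 and 2 against 2 libraries, were tested on simulated data. The planned design had assumed that no spread could be had, and the test on these library values is an addition. limma 3.58.1 in R 4.3.3 (lmFit, eBayes with trend) was run on log2(value + 1) for features with a mean of at least 50, two-sided, adjusted p threshold 0.05. Plots used matplotlib 3.10.9 under Python 3.11.15, with numpy 2.4.6, pandas 2.3.3 and scipy 1.17.1.

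Named microRNAs are the 15 furthest in each direction, the 10 most abundant in the control, and members of lists by counts with their most abundant members. Other names were chosen after their values were seen. Members and lists were chosen with earlier results of these data known. Loci join genes within 10 kb. Alternatives covered the pseudocount, the limit of 100, the scale, suffixed features, the fold counted, each library left out and, for crypts and villi, scaling, filter and replicate block. The scale was not varied for limma on the APC library values. A microRNA is not reported here.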

Additional observations from a re-analysis of the deposited data

Results flagged for a closer look

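Of 36 groups of 4 crypt or villus libraries examined for the named microRNAs, 1 held a library far from the others, and chance would give about 1 in 20. miR-148a-3p stood at 5325 RPMMM in villus replicate 3 and between 1704 and 2261 in the other 3 villus libraries. Without that library its crypt minus villus difference was 1.20 and passed the threshold, against 0.82 with an adjusted p of 0.0959 in limma over all 8 libraries.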

How the results depend on the processing

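For the APC averages, 48 microRNAs higher and 47 lower became 17 higher (median difference -0.13) with a larger average of at least 500, 23 higher with both averages at least 100, 81 higher and 22 lower (median 0.62) after rescaling to equal totals, 115 higher and 84 lower with suffixed features counted, and 72 lower at 1.5-fold. Leaving out 1 worked-out library gave 43 to 49 higher, 30 to 41 lower and medians from -0.05 to 0.05 over 208 microRNAs. The limma calls on worked-out libraries, added after the data were seen, fell from 35 higher and 31 lower to between 2 and 15 higher and between 5 and 9 lower with 1 library left out. Rescaling turned let-7g-5p from -0.52 to 0.10, and leaving out mutant library A turned miR-298-5p from 3.94 to -4.27 (-4.27 to 8.21 over the 4 fits). For crypts against villi, the calls were 22 higher and 37 lower under median-of-ratios scaling, in place of 46 and 9, and leaving out a library gave 35 to 51 higher and 6 to 10 lower. Neither the direction of miR-200c-3p (-0.41 scaled, -0.066 to 0.14 with 1 library left out), nor that of let-7g-5p (-0.22 to 0.039 with 1 left out) and miR-10a-5p (-0.21 scaled, -0.22 to 0.85 with 1 left out) held under each of these, and let-7g-5p was called lower under that scaling (-0.58). No paired analysis was possible because the APC columns are group averages with no replicate numbers. For crypts and villi the replicate block gave 45 higher and 7 lower calls. The numbers did not pair the samples, with correlations of 0.29, -0.11, -0.28 and 0.34, and only number 4 correlated best with its own. Depth limits features near the limit of 100 most, and a listed 0 hides up to 9 reads.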
